A study of Rattus norvegicus with 92 samples.

Results

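The rows described here are those of the deposited tables that were at a like level in hippocampus and hypothalamus and low in every other tissue measured. They were chosen from measured values, namely the mean levels in the air-exposed samples of 8 tissues. Each value was expressed in CPM, the counts that fell on a row out of every 1000000 counts of the library. A row was kept when its air mean reached 60 CPM in both brain regions, when the regions differed by no more than 2-fold, and when the lower region was at least 20 times each of the 6 other tissues. Of the 20508 rows in each table, 3191 reached 60 CPM in both regions, 2960 of those lay within 2-fold, and 80 met the whole rule. These 80 rows are called the members below.

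Adult male Wistar-Kyoto rats inhaled filtered air (0 ppm) or acrolein, a reactive aldehyde and respiratory irritant, nose-only for 4 h, and tissues were collected right after the exposure. The acrolein rats first went through steps of 7.5 min, beginning without acrolein and rising to 0.1 ppm, then 0.316 ppm, then 1 ppm, and were held at 3.16 ppm for the last 3.5 h. RNA was sequenced from nasal epithelium, lung, liver, adrenal, adipose, muscle, hippocampus and hypothalamus, in 92 samples, with 6 air and 6 acrolein samples in each brain region. The other groups held 5 air and 6 acrolein nasal samples, 8 and 6 lungs, 5 and 6 livers, 6 and 4 adrenals, 6 and 4 adipose columns and 6 and 6 muscles. No strain, allele or agent other than these is given, and all rats shared the nose-only procedure. Samples are named below by exposure and label number. The labels do not say whether a number shared by 2 tissues marks 1 rat, nor that the samples of a group are separate rats. The paper assigned 8 male rats to each exposure, and no label number recurs within a group apart from the adipose columns numbered 8. The p-values measure the spread between these samples, which the labels alone do not separate into biological and technical.

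The hippocampus serves memory and the control of the stress axis, and the hypothalamus governs hormone release, feeding and autonomic output. Both are built of neurons, astrocytes, oligodendrocytes and microglia, and RNA that is abundant in each of them and scarce in peripheral organs commonly comes from genes for synaptic transmission, myelin or the neuronal cytoskeleton. Peripheral tissues also hold nerve fibers and, in the adrenal medulla and the nasal epithelium, cells of neural origin. In bulk samples, fewer cells of a type and less RNA per cell cannot be told apart.

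The tables identify rows by Ensembl identifier and do not pair these with gene symbols, and no symbol could be matched. Of the members, 78 carried a transcript identifier and 2 a gene identifier. The dissected tissue could therefore not be checked against marker genes, and no member is described by function or sequence. Row lengths were not known either, so a CPM set against that of another row compares shares of reads, not copies of RNA.

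Some libraries stood apart from the rest of their group, which bears on every result below. Over the 11911 rows that averaged 5 CPM or more in brain, 23 of the 24 brain libraries correlated best with a library of their own region. The exception was the library labeled hippocampus acrolein 12, which correlated at r = 0.946 with hypothalamus air 6 and at no more than r = 0.897 with any other hippocampus. Its balance of region-biased rows was nonetheless on the hippocampal side, since the 100 rows most biased to hippocampus exceeded the 100 most biased to hypothalamus by 2.24 (log2 CPM), against 2.37 to 4.54 in the other hippocampi and -2.50 to -1.89 in the hypothalami. Those rows were picked from the other hippocampi and from the hypothalami without air 6 and acrolein 10, 11 and 15. That choice draws the values of the libraries used apart, and hippocampus acrolein 12 took no part in it. Hypothalamus air 6 and acrolein 15 were most like each other (r = 0.984), and hypothalamus acrolein 11 was not closer than r = 0.893 to any library. These correlations are across rows of libraries and carry no test. Outside the brain, nasal air 6, adrenal air 5, adipose air 1 and 1 of the 2 adipose columns numbered 8 had higher summed levels of the members than the rest of their groups. With these, both adipose columns numbered 8 and hypothalamus air 6 left out, the rule gave 103 rows, among them 77 of the 80 members.

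The members were abundant rows of the brain and made up a small but steady share of its RNA. Together they held 3.78% of the counts in air hippocampus and 3.59% in air hypothalamus. The median member stood at 197 CPM over both regions, 13 members were at 500 CPM or more, and 14 were under 100 CPM. Brain libraries held from 12775556 to 22288536 reads, and no member had fewer than 251 reads in any of them, with a median of 3186 reads. Counting error was therefore small beside the spread between samples.

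Much of the members' total came from a few rows. The 3 highest members supplied 45.2% of the members' counts in air hippocampus and 41.5% in air hypothalamus. The highest, ENSRNOT00000003283, had a mean of 7229 ± 3592 CPM (SD, n = 6) in air hippocampus and 7793 ± 1819 CPM (SD, n = 6) in air hypothalamus. Its air hippocampi read 4989, 5151, 3583, 6336, 10687 and 12627 CPM, and all 6 hypothalami lay within that range. The next, ENSRNOG00000062419, stood at 7194 ± 558 CPM (SD, n = 6) in air hippocampus and 3950 ± 979 CPM (SD, n = 6) in air hypothalamus, and it was far steadier between hippocampi. ENSRNOT00000022303 was at 2630 ± 1079 CPM and 3172 ± 972 CPM (SD, n = 6 each) in hippocampus and hypothalamus. The next 3 in order were ENSRNOT00000027497 with 1081 ± 423 and 1241 ± 607 CPM, ENSRNOT00000009705 with 736 ± 278 and 1072 ± 189 CPM, and ENSRNOT00000109994 with 990 ± 438 and 733 ± 305 CPM (SD, n = 6 each). The first and second overlapped in hippocampus, and ENSRNOT00000009705 and ENSRNOT00000109994 overlapped in both regions, so their order is not beyond the spread.

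**Figure D1:**
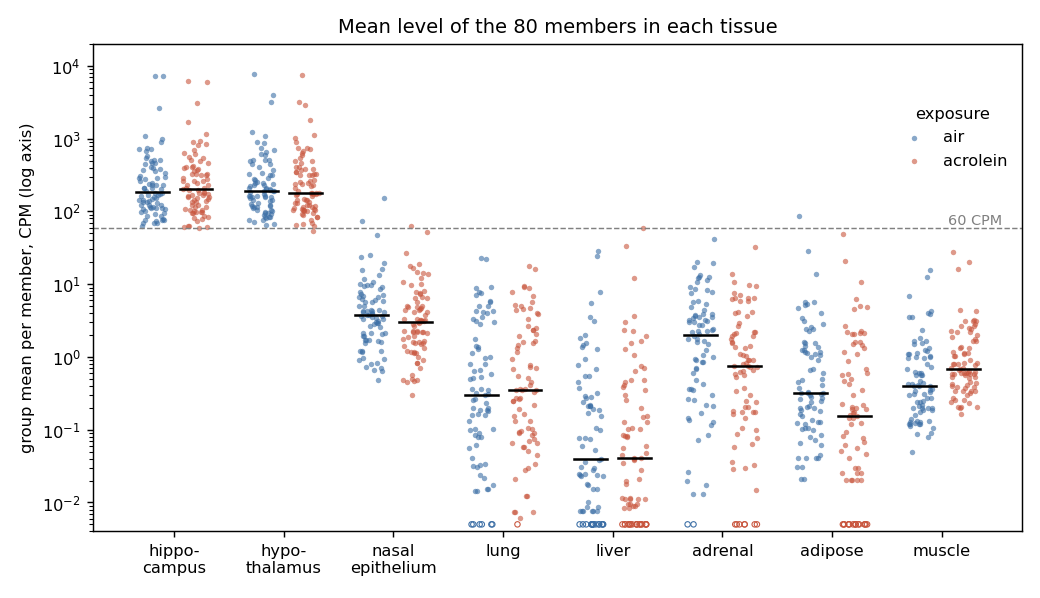
Group mean of each of the 80 members, in CPM on a log axis, in the 8 tissues under air (blue) and acrolein (red); black bars are medians over members, open circles at the bottom are members with a mean of 0.005 CPM or less, and the dashed line is the 60 CPM limit of the rule. The air levels chose the members. Outside the brain the nasal epithelium and the adrenal held the highest medians under air, 3.77 and 2.01 CPM, the latter raised by air 5. Liver held the lowest, 0.0392 CPM.

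Low outside the brain did not mean absent, and the tissues differed in how low. In air samples the median member was at 3.77 CPM in nasal epithelium, 2.01 in adrenal, 0.399 in muscle, 0.322 in adipose, 0.304 in lung and 0.0392 in liver. These levels come from separately normalized tables and were used by the rule, so they are a description. The adrenal and adipose levels rest in part on single libraries. The median member was at 4.61 CPM in adrenal air 5 and at 0.646 to 1.43 CPM in the other air adrenals. It was at 1.45 CPM in 1 adipose column numbered 8 and at 0 to 0.257 CPM in the other air adipose columns. Nasal epithelium was the next-highest tissue for 54 of the 80 members in air, the adrenal for 14, lung for 6, adipose for 4, and liver and muscle for 1 each. All 5 air nasal samples held a value above 0 for 77 members, whereas 16 members were at 0 in all 5 air livers. The members stood a median of 33.2 times above their next-highest tissue, with a range from 20.6 to 159. The member closest to its outside level was ENSRNOT00000048880, with 514 CPM in the lower region and 24.9 CPM in air nasal epithelium. That 514 CPM rested on hypothalamus air 6, described below.

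The limits of the rule cut through a continuum. Just inside the limit of 20 times were ENSRNOT00000048880, ENSRNOT00000081757 and ENSRNOT00000082319 at 20.6, 20.7 and 20.9 times, which are also the members with the highest level outside the brain relative to the brain. Just outside were ENSRNOT00000011573, ENSRNOT00000057897 and ENSRNOT00000063861 at 19.7, 19.5 and 19.3 times. At the 60 CPM limit the nearest members, ENSRNOT00000066057, ENSRNOT00000000874 and ENSRNOT00000107850, were at 62.3, 64.4 and 66.1 CPM, and the nearest other rows, ENSRNOT00000018592, ENSRNOT00000026259 and ENSRNOT00000092608, at 59.5, 58.2 and 57.8 CPM. At the 2-fold window the nearest members differed by 2.00, 1.91 and 1.89 times between regions, and the nearest rows outside by 2.04, 2.08 and 2.10 times. The window removed 20 rows that met the other limits, of which 16 were higher in hippocampus and 4 in hypothalamus.

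A few members supplied much of the summed level in most tissues outside the brain, and lung, adipose and liver are described here. Under air the 2 highest members held 33.6% of the members' counts in nasal epithelium and 29.9% in muscle. Both shares were above that of lung, given below, and only the adrenal share was lower than that of lung. In lung, ENSRNOT00000004725 was between 16.8 and 29.4 CPM in the 8 air samples and between 10.8 and 21.1 CPM in the 6 acrolein samples. ENSRNOT00000007660 was likewise between 14.4 and 35.0 CPM in air lungs and between 13.9 and 25.1 CPM in acrolein lungs. These 2 rows held 28.3% of the members' counts in air lung, where the median member was below 1 CPM. The latter was not particular to lung, with a mean of 19.9 CPM in air adrenal. In adipose, ENSRNOT00000022303 read 213.9, 55.0, 50.6 and 58.6 CPM in air 1, 2, 5 and 7 and from 40.3 to 57.9 CPM in the 4 acrolein samples, so air 1 alone was high. In liver, ENSRNOG00000062419 and ENSRNOT00000109994 together held 58.1% of the members' counts under air, although the former was higher in air nasal epithelium, with a mean of 74.0 CPM against 28.5 CPM in air liver.

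The pattern was then read in the acrolein samples, which the rule did not use. There 78 of the 80 members reached 60 CPM in both regions, 77 were within 2-fold, 79 were at least 20 times every other tissue, and 74 met the 3 limits at once. Seen from the other side, 111 rows met the rule in acrolein samples, and members were 66.7% of these. Of the 37 rows that were not members, 23 had passed the brain level and the window in air but fell short of 20 times. The median of all 37 in air was 16.1 times. The median distance to the next-highest tissue was 50.7 times, from 15.9 to 287 times. Nasal epithelium was again the next-highest tissue for 54 members. For every member the lowest acrolein brain sample exceeded the highest acrolein sample of any other tissue, by at least 2.15 times. The share of other rows that did so was not computed, and the members were picked for such a gap in air. The members held 3.79% of the counts in acrolein hippocampus and 3.60% in acrolein hypothalamus, close to the shares under air.

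The libraries that stood apart in hypothalamus lay at 1 end of the members' main axis of spread, and in hippocampus the spread was divided more evenly. The first principal component of the members' log2(CPM + 1) values held 49.999% of their variance in hypothalamus and 26.7% in hippocampus, where the second held 24.2%. Hypothalamus air 6, acrolein 15 and acrolein 11 scored 4.88, 5.07 and 4.25 on it, whereas the other 9 scored between -3.30 and 1.47. In hippocampus, acrolein 12 was highest with 4.96 and the other 11 scored between -3.85 and 2.89. The component was not wholly particular to the members, since its scores followed those of all rows (absolute r = 0.936 over 12 hypothalami and 0.908 over 12 hippocampi). Hypothalamus acrolein 11 was placed otherwise by all rows, with a score of 10.6, below the 22.9 of acrolein 10. Hypothalamus air 6 and acrolein 15 scored 65.5 and 72.0 there. What lay behind the members' component was not tested.

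Across the 80 members, the deviations of 3 of these libraries from their own region's median ran in parallel. The deviations of hypothalamus air 6 correlated at r = 0.954 with those of hypothalamus acrolein 15 and at r = 0.926 with those of hippocampus acrolein 12, over 80 members of libraries from different exposures and regions. In all 3 libraries, 24 members were above and 36 below their region's median, 3 were over 2-fold above and 5 over 2-fold below. Hypothalamus acrolein 10 followed them less closely, at r = 0.687 with air 6, 0.667 with acrolein 15 and 0.737 with hippocampus acrolein 12. Hypothalamus acrolein 11 deviated otherwise (r = 0.415 with air 6), and 24 of its members were over 2-fold from the region's median.

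**Figure D2:**
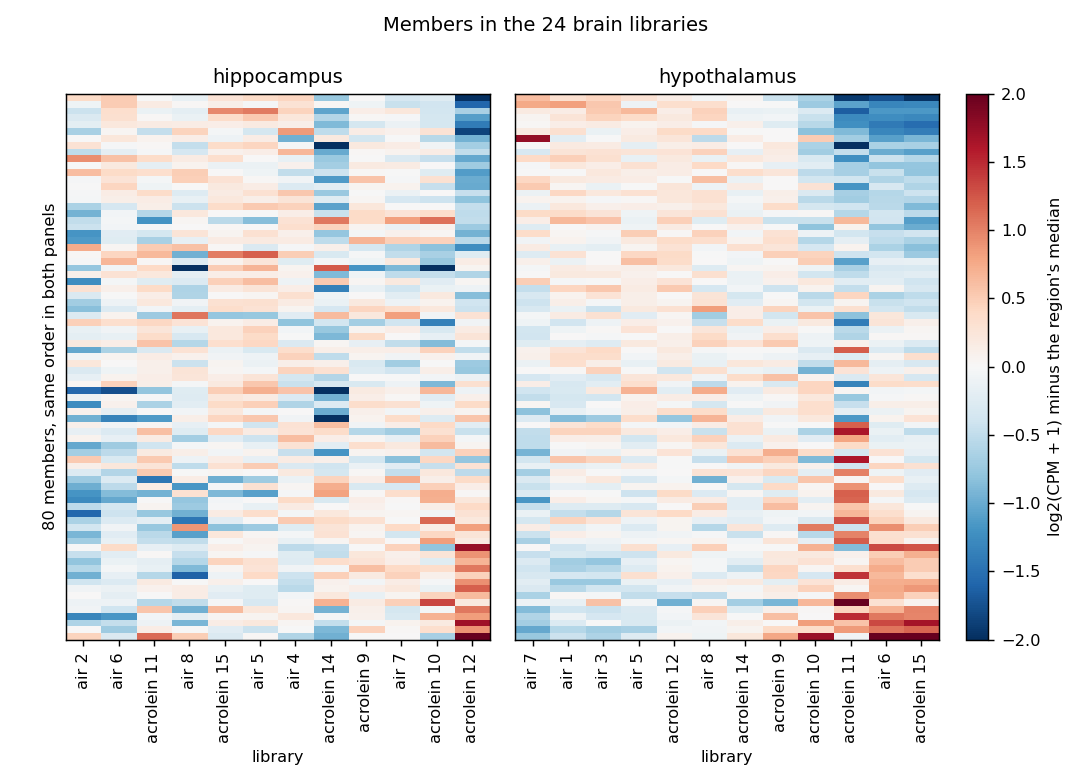
Deviation of log2(CPM + 1) from the region's median for the 80 members (lines, in the same order in both panels) in the 12 hippocampus and 12 hypothalamus libraries (columns, ordered by the members' first principal component in each region). Hypothalamus air 6 and acrolein 15 and hippocampus acrolein 12, at the right, share their blocks of low and high members, and hypothalamus acrolein 11 has another pattern.

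The member that moved most between these libraries was ENSRNOT00000048880. In air hypothalamus it read 227, 199.9, 256, 1929, 181 and 289 CPM in air 1, 3, 5, 6, 7 and 8. In acrolein hypothalamus it read 524, 1013, 291, 324, 358 and 2002 CPM in acrolein 9, 10, 11, 12, 14 and 15. Hippocampus acrolein 12 held 3713 CPM of it, against 333 to 1430 CPM in the other 11 hippocampi. The opposite end was held by ENSRNOT00000113229, which read 49.9 CPM in hypothalamus air 6, 42.5 in acrolein 15, 44.6 in acrolein 11 and 30.2 in hippocampus acrolein 12. No other brain library was below 75.9 CPM for this row. High and low samples of both rows thus occurred under air as well as under acrolein.

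With these libraries included, the members had a higher median spread between samples than other rows of like level, a difference given here without a test. The spread without these libraries was not computed. The median coefficient of variation of the members was 26.1% in air and 30.2% in acrolein hippocampus, and 24.2% in air and 31.5% in acrolein hypothalamus. For the 2880 rows that met the brain level and the window but not the limit of 20 times, the same medians were 20.8%, 24.8%, 21.7% and 25.9%. The steadiest was ENSRNOT00000028633 in air hippocampus, between 330.4 and 396 CPM in the 6 samples.

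Between the regions the members were close by construction in air, so their air ratios are a description. In air samples, 5 members were higher in every hippocampus than in any hypothalamus, 0 were lower in every hippocampus, and 75 overlapped. Among all 20288 rows above 0, 3.72% were above and 5.01% below without overlap, 8.73% in either direction. The 5 members were ENSRNOG00000062419, ENSRNOT00000119428, ENSRNOT00000074347, ENSRNOT00000099619 and ENSRNOT00000102313, named after their values were seen. In the acrolein samples, 3 members were above without overlap and 0 below, against a background of 2.29% above and 3.13% below, 5.42% in either direction. These 3 were ENSRNOG00000062419, ENSRNOT00000101523 and ENSRNOT00000102313, so 2 members were above in both exposures.

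The member ENSRNOG00000062419 had the widest gap between regions in reads. Its acrolein hippocampi read 7756, 6936, 6064, 4213, 4268 and 6350 CPM in acrolein 9, 10, 11, 12, 14 and 15, and its acrolein hypothalami read 3295, 3206, 2345, 4131, 3768 and 2160 CPM in the same order of numbers. The lowest hippocampus, acrolein 12, was thus only just above the highest hypothalamus. In ENSRNOT00000102313 the acrolein hippocampi lay between 116 and 184 CPM and the acrolein hypothalami between 71.0 and 107 CPM, so the groups were further apart relative to their level.

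The order of the region means was the same in both exposures for 72 of the 80 members, a count given without the share of all rows. Most members overlapped between the regions, 75 in air and 77 in acrolein. The median log2 ratio of hippocampus to hypothalamus was -0.07 in air and -0.04 in acrolein. Under acrolein the ratio was highest for ENSRNOT00000099619, at 2.40, ENSRNOT00000101523, at 2.24, and ENSRNOT00000022060, at 2.10. It was lowest for ENSRNOT00000066057, at 0.519, ENSRNOT00000075249, at 0.577, and ENSRNOT00000003240, at 0.587. For the row with the highest ratio, hippocampus acrolein 12 and 14 were at 132 and 120 CPM, within reach of the 87.5 to 126 CPM of the hypothalami, while the other 4 hippocampi were between 256 and 392 CPM. For the row with the lowest ratio, the acrolein hippocampi ran from 32.4 to 106 CPM and the hypothalami from 64.2 to 149.7 CPM, and they overlapped.

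The exposure comparison asked whether inhaled acrolein altered the members in either brain region. Acrolein against air was tested with limma on log2(normalized count + 1), over all rows of a tissue. The air samples in this test also chose the members, so the members' estimates are not free of that choice. A call needed a Benjamini-Hochberg adjusted p no higher than 0.1 and a change of more than 1.2-fold in either direction. In hippocampus 0 of the 80 members were called, as were 0 of the 19988 rows tested (a background of 0%). In hypothalamus 0 of the 80 members and 0 of the 19902 rows (0%) were called. The smallest adjusted p of a member by limma was 0.8328 in hippocampus and 0.963 in hypothalamus. At an unadjusted p under 0.05 there were 5 members in hippocampus, against 4.31% of all rows, with 3 higher (background 2.15%) and 2 lower (2.16%). In hypothalamus there were 2, against 2.69% of all rows, with 1 higher (0.97%) and 1 lower (1.72%). edgeR and DESeq2 on the recovered reads gave 2 and 3 members at that level in hippocampus, against 5.46% and 5.08% of all rows. In hypothalamus they gave 1 and 2, against 2.79% and 2.87%, and they called 0 members in either region. No member had air and acrolein samples that did not overlap, which 0.0951% of all rows in hippocampus and 0.0854% in hypothalamus did.

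Estimates for the members lay on both sides of 0 and close to those of all rows. In hippocampus 39 of the 80 were positive and the median log2 fold change was -0.03, with a range from -0.72 to 0.66, while 49.4% of all tested rows were positive with a median of -0.01. In hypothalamus 37 of the 80 were positive and the median was -0.05, from -0.81 to 0.78, against 49.2% of all rows and a median of -0.01. The standard error of a member had a median of 0.25 in hippocampus and 0.22 in hypothalamus, near the log2 limit of 0.26 that a 1.2-fold change sets. A change of that size in 1 member was therefore not detectable with these samples. The medians changed sign with the scaling or tool, to 0.02 with a common total and 0.04 with quantile normalization in hippocampus, and to 0.03 with edgeR and 0.02 with DESeq2 in hypothalamus.

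**Figure D3:**
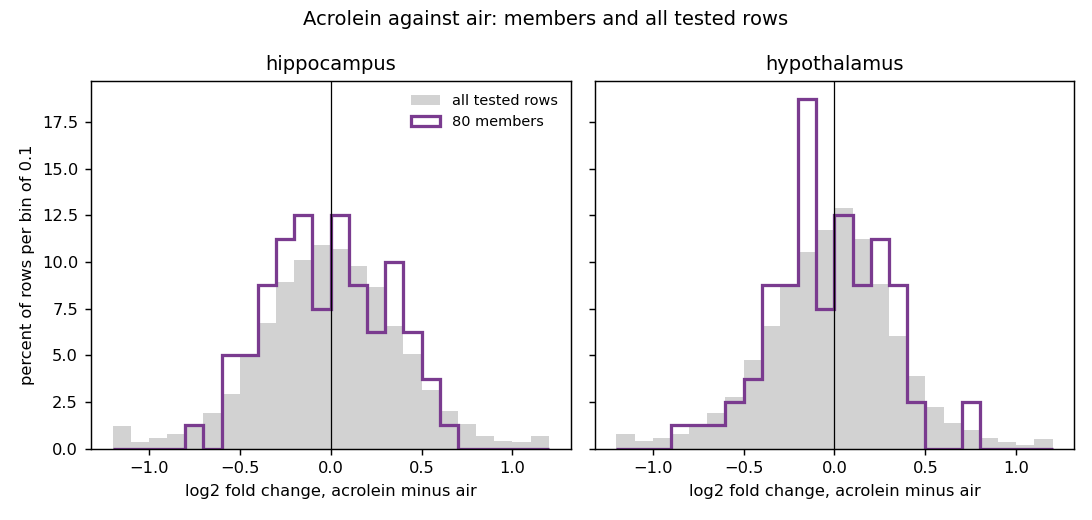
Distribution of log2 fold changes of acrolein against air (limma, log2(normalized count + 1)) for the 80 members (purple line) and for all tested rows (grey), as the percent of rows in bins of 0.1, in hippocampus (left) and hypothalamus (right), with 6 air and 6 acrolein samples each; values beyond the axis are gathered in the outer bins. The medians of the members were -0.03 and -0.05, and no member was called.

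The largest estimates moved when single libraries were left out. In hippocampus the largest rises were ENSRNOT00000027497 (log2 fold change 0.66, SE 0.31) and ENSRNOT00000013955 (0.59, SE 0.24), neither of which was called. ENSRNOT00000027497 read 553, 1596, 1423, 612, 1108 and 1192 CPM in the air hippocampi and 1451, 2225, 1325, 2455, 1340 and 1404 CPM in the acrolein hippocampi, the 2455 CPM being acrolein 12. Its estimate was 0.52 without that library. The air and acrolein values overlapped between 1325 and 1596 CPM.

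The largest falls in hippocampus were ENSRNOT00000113229 (log2 fold change -0.72, SE 0.33) and ENSRNOT00000118632 (-0.57, SE 0.42), neither called. The former moved to -0.43 without acrolein 12. The latter read between 51.0 and 96.1 CPM in the 6 air samples and 81.9, 67.6, 72.1, 44.1, 11.5 and 91.8 CPM in acrolein 9, 10, 11, 12, 14 and 15. Its estimate rested on acrolein 14, and without that library it was -0.11.

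In hypothalamus the largest rises were ENSRNOT00000048880 (log2 fold change 0.78, SE 0.62) and ENSRNOT00000001844 (0.75, SE 0.34), and the largest falls were ENSRNOT00000113229 (-0.81, SE 0.44) and ENSRNOG00000063610 (-0.72, SE 0.34). None of the 4 was called, and ENSRNOT00000048880 was a member only through air 6. ENSRNOT00000001844 read 75.5, 69.3, 72.1, 237, 55.0 and 108 CPM in the air samples and 147, 146, 204, 109, 117 and 254 CPM in the acrolein samples. Apart from air 6, at 237 CPM, every air value was below every acrolein value. Without air 6 its estimate was 1.06 and its limma adjusted p was 0.334, the same adjusted p as the other 3 then had, and it was still not called.

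Leaving out libraries changed how many hypothalamic members were near the threshold, not whether any was called. Without air 6 there were 20 members at an unadjusted p under 0.05, with 0 called, and the share of all rows at that level was 12.6%. Without air 6, acrolein 11 and acrolein 15 together there were 14, against 9.54% of all rows, with 0 called and a smallest adjusted p of 0.417 by limma. The median log2 fold change of the members was then 0.04. In that fit ENSRNOT00000048880 stood at 1.12, ENSRNOT00000001844 at 0.78, ENSRNOT00000113229 at -0.56 and ENSRNOG00000063610 at -0.51.

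The 2 regions had estimates of the same sign for 64 of the 80 members, against 67.3% of the 19758 rows tested in both. Without hippocampus acrolein 12 and hypothalamus air 6, acrolein 11 and acrolein 15, the same sign was found for 48 members and 51.5% of the rows. The shared direction thus moved with these 4 libraries for members and other rows alike.

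The rule fixed that the members' summed level separates brain from other tissues in the air means, so the sums are given as a description, library by library. The 80 members summed to between 30697 and 44574 CPM in the air hippocampi and between 32620 and 41029 CPM in the acrolein hippocampi. Hypothalamus sums ran from 33241 to 38040 CPM in air and from 33357 to 38766 CPM in acrolein. The highest sum in any of the 68 other libraries was 1328 CPM. No brain library was low in the members as a whole, including those that stood apart.

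**Figure D4:**
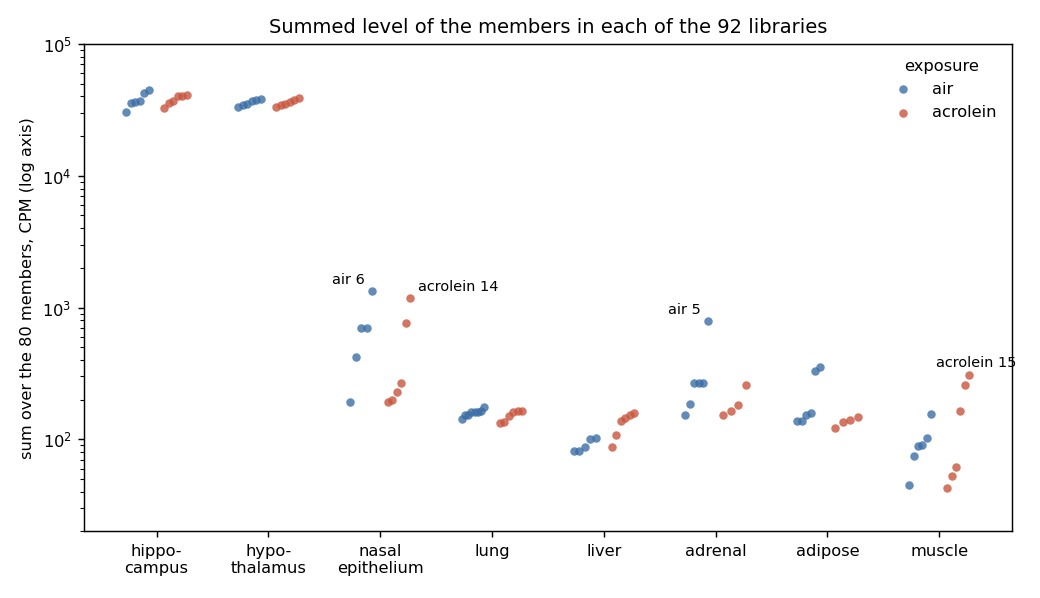
Sum of the CPM of the 80 members in each of the 92 libraries, on a log axis, by tissue and exposure (air blue, acrolein red), with libraries ordered by their sum within a group; both adipose columns numbered 8 are shown. The 24 brain libraries lie between 30697 and 44574 CPM and the highest other library, nasal air 6, at 1328 CPM.

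Outside the brain the sum varied widely between samples of 1 tissue. In nasal epithelium it ran from 192 to 1328 CPM in the 5 air samples and from 191 to 1178 CPM in the 6 acrolein samples. Nasal air 6 was above the nasal median in 79 of the 80 members, and nasal acrolein 14 in 80 of 80. Adrenal air 5 summed to 791 CPM, and the other 5 air adrenals lay between 154 and 267 CPM. Lung was the most even tissue, from 133 to 177 CPM over 14 samples.

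Each library's level was also expressed relative to the air level of the lower brain region, in ppm of that level. The median member was at 40869 ppm of its brain level in nasal air 6, at 39066 ppm in nasal acrolein 14 and at 19648 ppm in adrenal air 5. Spearman's rho with the brain level, across the 80 members, was 0.479 in adrenal air 5, within the range of 0.382 to 0.524 in the other adrenals, and it was 0.765 in nasal air 6 and 0.809 in nasal acrolein 14. These rho are descriptions across members that share a library.

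Muscle acrolein 15 had the highest rho of the 68 libraries outside the brain. The members summed to 164, 260 and 310 CPM in muscle acrolein 12, 14 and 15, and to between 42.6 and 155 CPM in the other 9 muscles. In acrolein 15 all 80 members were above 0, with a median of 10054 ppm of the brain level and quartiles of 7763 and 11990 ppm, so that most members lay near 1 part in 100 of their brain level. Its rho with the brain level was 0.925, against 0.829 in acrolein 14, 0.801 in acrolein 12 and 0.486 to 0.809 in the other 9. The rows that the 2-fold window had removed were lower there, at 5448 ppm of the hippocampal level for the 16 higher in hippocampus and 5953 ppm of the hypothalamic level for the 4 higher in hypothalamus, where the members were at 8859 and 8523 ppm. Where this RNA came from was not tested.

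**Figure D5:**
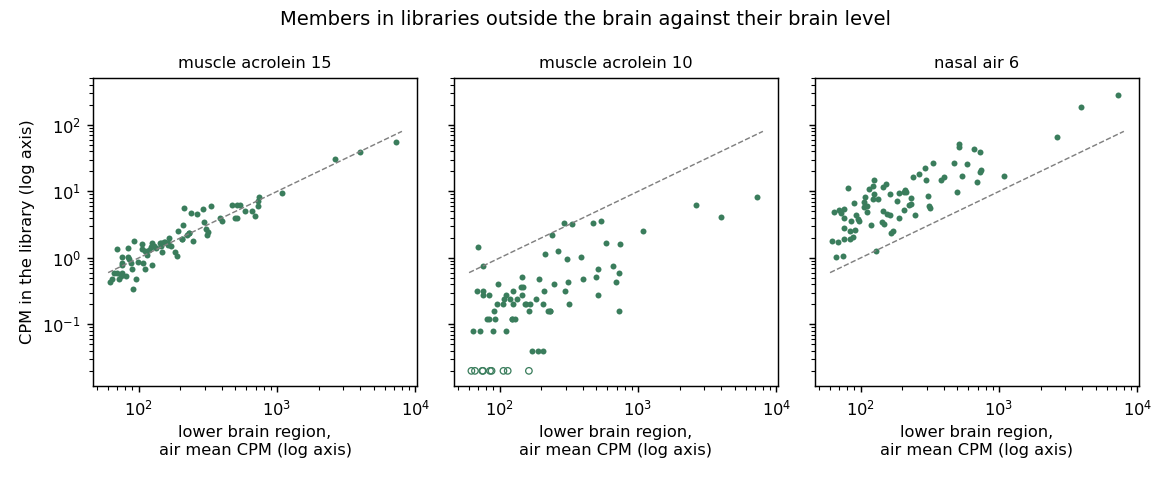
CPM of the 80 members in 3 libraries outside the brain against the air mean CPM of their lower brain region, both on log axes; the dashed line marks 1 part in 100 and open circles at the bottom are members at 0. In muscle acrolein 15 the members follow the line (rho 0.925), in muscle acrolein 10 they lie below it with more scatter (rho 0.625), and in nasal air 6 they lie above it (rho 0.765).

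In adipose the 2 columns numbered 8 held different amounts of the members. One had 80 of 80 members above 0 and a sum of 328 CPM, and the other had 34 of 80 above 0 and a sum of 137 CPM. The former ranked the members closely as in brain (rho 0.803), the latter did not (0.451). The latter was also shallower, with 2.51e+06 reads against 9.66e+06, taking the smallest value above 0 as 1 read. It held 15206 rows above 0, against 17039 in the former. How far depth accounts for the difference in members was not tested. The 2 columns entered the fits as their mean. Adipose air 1, with 351 CPM, owed 213.9 CPM of it to ENSRNOT00000022303 alone, and 49 of its members were above 0.

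The same limma test was fitted in the 6 other tissues, where the members are low rows. The air samples of these tissues also entered the rule, so the members' estimates there are not free of it. A call was made for 1 member in 1 tissue. In liver ENSRNOG00000062419 rose, with a log2 fold change of 1.02 (SE 0.22, limma adjusted p = 0.0955), and 0.368% of all 18769 rows were called, 0.197% of them as rises. Its livers read 20.4, 32.1, 26.0, 26.4 and 37.4 CPM under air and 55.2, 68.4, 43.9, 33.3, 70.5 and 87.8 CPM under acrolein, so 5 of 6 acrolein livers were above every air liver. The level stayed far below the brain, and the second liver row, ENSRNOT00000109994, had a log2 fold change of 0.43 (SE 0.22) that was not called. The call stood near its limit: the adjusted p ran from 0.0024 with DESeq2 to 0.197 without air 1, and 10 of 23 fits kept it. DESeq2 called 8.74% of all liver rows and edgeR 1.53%. It was lost with any 1 of 8 livers left out and kept without air 5, air 7 or acrolein 14. Of the 80 members, 58 passed the filter in liver, of which 24 had positive estimates (49.7% of all rows), and 8 were at an unadjusted p under 0.05 (19.2% of all rows).

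In the remaining tissues 0 members were called. The background of limma calls was 0.651% in nasal epithelium, 0.00499% in lung and 0% in adrenal, adipose and muscle. At an unadjusted p under 0.05 there were 2 nasal members (12.2% of all rows), 5 in lung (7.67%), 5 in adrenal (7.54%), 0 in adipose (2.71%) and 2 in muscle (2.99%). In muscle 67 of 80 estimates were positive (48.3% of all rows) with a median log2 fold change of 0.55. Without muscle acrolein 12, 14 and 15 only 10 of 80 were positive and the median was -0.51, so the direction turned. In nasal epithelium 7 of 80 were positive (49.8% of all rows) with a median of -0.66, which was -0.35 without air 6, -0.99 without acrolein 14 and -0.73 with 8 of 80 positive without both.

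In adrenal 13 of 75 estimates were positive (48.8% of all rows) with a median of -0.45, and the median was -0.10 without air 5. One adrenal member did not overlap between exposures, ENSRNOT00000109173, named after its values were seen, at -1.62 (SE 0.54, limma adjusted p = 0.649), where 1.31% of all rows did not overlap and 0.737% were lower in this way. In adipose 11 of 73 were positive (50.3% of all rows) with a median of -0.38, and the median was -0.14 without the sample numbered 8. In lung 41 of 76 were positive (49.1% of all rows) with a median of 0.02, which was -0.05 with quantile normalization. A common total moved the median of all rows in adrenal from -0.01 to -0.15, and the members' median there was then -0.56. These medians run over low rows that share each library, and no test was made on them.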

How the data were processed

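The authors deposited 1 table per tissue of a signal, in which each sample's read counts had been scaled by its own size factor. RNA was made into mRNA libraries per the labels. The study's methods, written for liver, mapped reads to rn7 with an Ensembl annotation in Partek and R 4.1.3, and the submitters' processing notes name Partek, rn7 and DESeq2. Each table was normalized alone, so tests stayed within a table. All sample columns were mapped and 0 were left out. The 2 adipose columns numbered 8 were averaged.

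CPM is the value over its column sum. Dividing a column by its smallest value above 0 gave whole reads, within 0.05, for 100% of positive values in the brain and liver tables. Whole reads were recovered for all columns of these tables only. limma 3.58.1 in R 4.3.3 was fitted with a variance trend on log2(value + 1), using rows above 0 in at least 2 samples. The pseudocount makes changes of low rows look smaller than they were. edgeR 4.0.16 and DESeq2 1.42.0 ran on the recovered reads of brain and liver as alternatives. The fits were also run on simulated brain counts, in which rows varied independently and no library was shifted as a whole. That run does not show how the fits behave with libraries that stand apart.

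Members and lists were chosen with earlier results of these data known. Named rows were the 6 highest members, the 3 highest and 3 lowest region ratios under acrolein, the 2 largest rises and 2 largest falls per brain region, and the 3 rows nearest either side of the level limits. The planned marker and pathway lists could not be applied, since identifiers had no symbols.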

Additional observations from a re-analysis of the deposited data

Results flagged for a closer look

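Of 34 groups examined for a sample far from the others, 3 held one. The rule flags about 1 in 20 groups by chance when groups are not picked by their values. Many of these groups were rows picked for large estimates, so the 3 are given as a description. Adrenal air 5 had a summed member level of 790.5 CPM, and the other 5 air adrenals lay between 154 and 267 CPM. In air hypothalamus, air 6 was far above the rest for ENSRNOT00000001844, with 237 CPM against 55.0 to 108 CPM, and for ENSRNOT00000048880, with 1929 CPM against 181 to 289 CPM. Both of these values come from 1 library, which also stood apart over all rows. ENSRNOT00000048880 met the rule only through that library.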

How the results depend on the processing

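The number of members moved with the limits, to 162 at 10 times, 33 at 40 times and 52 at 120 CPM. It was 76 to 83 with 1 air brain sample left out, 70 with TMM-scaled totals, 67 of them members, and 103 without the air samples that stood apart, 77 of them members. Under acrolein, 71 to 75 members met the rule with 1 brain sample left out, 63 with TMM-scaled totals, and 72 without hypothalamus acrolein 11 and 15 and hippocampus acrolein 12. The highest sum outside the brain was 830 CPM without the 3 highest members. In hippocampus 0 rows were called in every fit, and in hypothalamus 1 row, no member, was called by DESeq2, while leaving out 1 sample gave 0 to 1 rows and 0 members. Hippocampal members at an unadjusted p under 0.05 ranged from 0 to 8 with 1 sample left out, while 388 to 1328 of all rows did, and hypothalamic ones from 0 to 20, while 294 to 2498 of all rows did. In liver 0 members were called with a pseudocount of 5, no filter, a common total, limma without trend or an adjusted p limit of 0.05, DESeq2 called 2 of 70 (8.74% of all rows), and leaving out 1 liver gave 0 to 4, the 4 of 57 without air 5 (9.31% of all rows). The log2 fold changes of the 4 named members in each brain region and of ENSRNOG00000062419 in liver kept their sign in every alternative, and those of other rows were not followed. The cause was not tested, except that stricter limits keep fewer rows by construction. The alternatives for tissues other than brain, and those that left out libraries together, were chosen after seeing the data. No paired analysis was possible because air and acrolein samples share no label numbers.

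Tables normalized one by one, rows without symbols or lengths and 4 to 8 samples a group limit these results. Outside the brain, 29 members in lung, 20 in adipose and 14 in liver averaged a normalized count of 10 or more. That number was 76 in nasal epithelium, 47 in adrenal and 44 in muscle. The filter of the fits passed 58 to 80 of the members in a tissue.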
